A study of Mus musculus with 12 samples.

Results

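Heat shock chaperones of the cytosol were followed through total and ribosome-bound RNA of the mouse ventromedial nucleus of the hypothalamus (VMN). The 10 genes were chosen by name: Hspa1a, Hspa1b, Hspa8, Hspa4, Hsp90aa1, Hsp90ab1, Hsph1, Hspb1, Dnajb1 and Dnaja1. All 10 were found among the 46517 Ensembl genes measured, each with 1 identifier. The choice was made with results of these libraries known, so every fold change and adjusted p below is a description of these genes and not independent evidence about them.

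The mice ate regular chow and were taken after a fast overnight. Translating ribosome affinity purification (TRAP) was used: a virus (AAV) gave SF1 cells, neurons of the VMN, a GFP fusion of ribosomal protein L10, and ribosomes carrying it were pulled down with their RNA. All groups received that GFP-L10 virus. The DN group also received an AAV for dominant-negative AMPK, a mutant that blocks this energy-sensing kinase, and the CTRL group did not, going by the field for that mutant. A protocol text shared by all samples names the dominant-negative virus for CTRL too. No other virus is named for CTRL, so effects of the mutant and of carrying 1 more virus cannot be told apart. The sources used here do not give strain, age, sex or the promoter of each virus. Dissected tissue of 6 animals was pooled per sample. Each of 6 pools gave 1 input library, RNA of the tissue, and 1 output library, the pulled-down RNA, which makes 4 groups of 3 libraries: CTRL input, CTRL output, DN input and DN output.

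Chaperones help other proteins fold and keep them from clumping. Hsp70 proteins bind stretches of unfolded chain in a cycle driven by ATP, J proteins deliver the chains and start the ATP step, and exchange factors of the Hsp110 group (Hsph1, Hspa4) release the spent nucleotide. Hsp90 proteins finish the folding of kinases and steroid receptors, and small heat shock proteins hold unfolded chains without ATP. Hspa8 and Hsp90ab1 are made in most cells at all times, whereas Hspa1a and Hspa1b are known for their rise after heat and other stress, driven by Hsf1, a transcription factor that binds repeats of GAA and TTC.

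Hspa1a and Hspa1b are near-identical neighbours, also upstream of their starts. The 250 bases before each start are given here because the copies differ at only 3 of the 250 positions, and because the letters GAANNTTC, in capitals, sit at the same place in both. They are from RefSeq on GRCm38.p6, minus strand of chromosome 17, chr17:34972157-34972406 for Hspa1a and chr17:34959239-34959488 for Hspa1b.
Hspa1a: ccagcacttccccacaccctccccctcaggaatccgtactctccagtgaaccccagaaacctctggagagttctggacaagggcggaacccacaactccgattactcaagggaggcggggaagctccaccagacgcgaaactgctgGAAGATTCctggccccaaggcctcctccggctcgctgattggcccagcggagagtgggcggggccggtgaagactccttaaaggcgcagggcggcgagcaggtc
Hspa1b: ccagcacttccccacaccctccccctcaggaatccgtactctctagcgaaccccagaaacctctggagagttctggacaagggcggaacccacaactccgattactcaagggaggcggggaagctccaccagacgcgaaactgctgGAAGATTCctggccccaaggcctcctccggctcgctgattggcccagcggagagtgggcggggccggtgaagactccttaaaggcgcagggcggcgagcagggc
The first capital lies 104 bases before the start in each. GAANNTTC reads the same on both strands, and so does TTCNNGAA, the other phase of the repeat, which can overlap it. Of 32851 RefSeq windows of 250 bases, 6.69% hold GAANNTTC, 7.17% hold TTCNNGAA and 12.8% hold either. RefSeq windows were found for 7 of the 10 genes, 11 windows in all, since some genes have several starts. One of the motifs is in 6 of the 11: those of Hspa1a and Hspa1b, which are copies of each other, both of Hsph1, that of Hspb1 and 1 of 3 of Dnaja1. Both windows of Hsph1 overlap and hold the same site, so the 6 are not independent. A longer form with 1 more unit of the repeat is in 0 of the 11 and in 0.466% of all windows. A match describes letters only.

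Shared sequence limits which levels can be read. Windows of 50 bases along each gene's transcripts were compared with the transcripts of all other genes. In Hspa1a 66.3% of windows also occurred elsewhere, mostly in Hspa1b (58.8%), and in Hspa1b 62.3% occurred in Hspa1a. The share was 50.1% for Hspb1, mostly in the pseudogene Hsp25-ps1, 47.5% for Hsp90aa1, all in 4 pseudogenes, 39.4% for Hspa8, mostly in the pseudogene Gm15459, and 20.6% for Dnaja1. It was 3.44% for Hsp90ab1, 0.412% for Dnajb1 and 0% for Hspa4 and Hsph1. Reads that fit several places were set aside in a class without a gene (10.8 to 11.7% of all reads counted or set aside in inputs, 13.1 to 13.5% in outputs), so levels of the genes with large shares are uncertain and may be too low. Hspa1a also overlaps Gm20481 and Dnaja1 overlaps Smu1 and Gm6297, all on the other strand, and Hspa8 holds 3 small nucleolar RNA genes. The sources used here do not give the strand setting of the counting, so reads of such antisense partners cannot be told apart.

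Each library held 34.6 to 55.5 M gene counts. Mitochondrially encoded genes took 74.9 to 79.7% of them in inputs and 17.9 to 26.1% in outputs, which left 8.54 to 11.3 M counts of nuclear genes per input and 26.2 to 32.1 M per output. Levels are normalized CPM, counts per 1 M of a library size scaled by the TMM method over the 12 libraries. A count of 3, taken as the limit that a count of 0 allows, is 0.104 to 0.134 CPM in inputs and 0.0412 to 0.0493 CPM in outputs. These limits cover counting error only. Summed over 6 markers of VMN neurons (Nr5a1, Fezf1, Slc17a6, Nkx2-1, Adcyap1, Gda), the level was 418 to 469 CPM in CTRL inputs and 1132 to 1334 CPM in CTRL outputs, and 414 to 588 CPM in DN inputs and 1433 to 1917 CPM in DN outputs. All 6 of these markers had a log2 fold change of output against input above 0 in CTRL and in DN. At an adjusted p under 0.05 in the edgeR test described below, 6 of 6 passed as higher in CTRL outputs. Without pool 1 or 2 this was 2 of 6, and without pool 3 it was 5 of 6. In DN outputs 5 of 6 passed, and 3 or 4 of these 5 did so without 1 pool. The 5 astrocyte markers summed to 462 to 610 CPM in the 6 inputs and 109 to 169 CPM in the 6 outputs, and none of these defining markers was at 0 in all libraries of a group. In such bulk samples fewer cells of a type and less RNA per cell cannot be told apart.

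Per kilobase of exon, and by the reads kept for a gene, Hsp90ab1 was the highest of the 10 in every group. It was at 108 CPM per kb in CTRL inputs, 115 in CTRL outputs, 112 in DN inputs and 147 in DN outputs. Hsp90aa1 came next at 49.1, 69.5, 53.8 and 89.4 CPM per kb in the same order. Hspa4 (34.1) and Hsph1 (26.9) followed in CTRL inputs without overlap of their libraries, and they overlapped in CTRL outputs (44.2 and 48.5) and in DN inputs (36.1 and 34.3). In DN outputs Hsph1, at 58.5 CPM per kb, stood above Hspa4, at 42.9, in every library. Hspa8 came after these in each group, at 16.3 to 22.5 CPM per kb, above Dnaja1 at 11.5 to 15.6, and these overlapped in CTRL inputs only. Dnajb1 was at 6.79 to 11.5 CPM per kb and overlapped with Dnaja1 in DN outputs. The stress-inducible pair and Hspb1 were all below 0.42 CPM per kb in each group mean. Reads that fit several places were set aside, and the shares of such windows differed widely. They were 47.5% for Hsp90aa1 and 39.4% for Hspa8, against 3.44% for Hsp90ab1 and 0% for Hspa4 and Hsph1. The true order of Hsp90aa1 and Hspa8 among these genes is therefore uncertain.

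**Figure D1:**
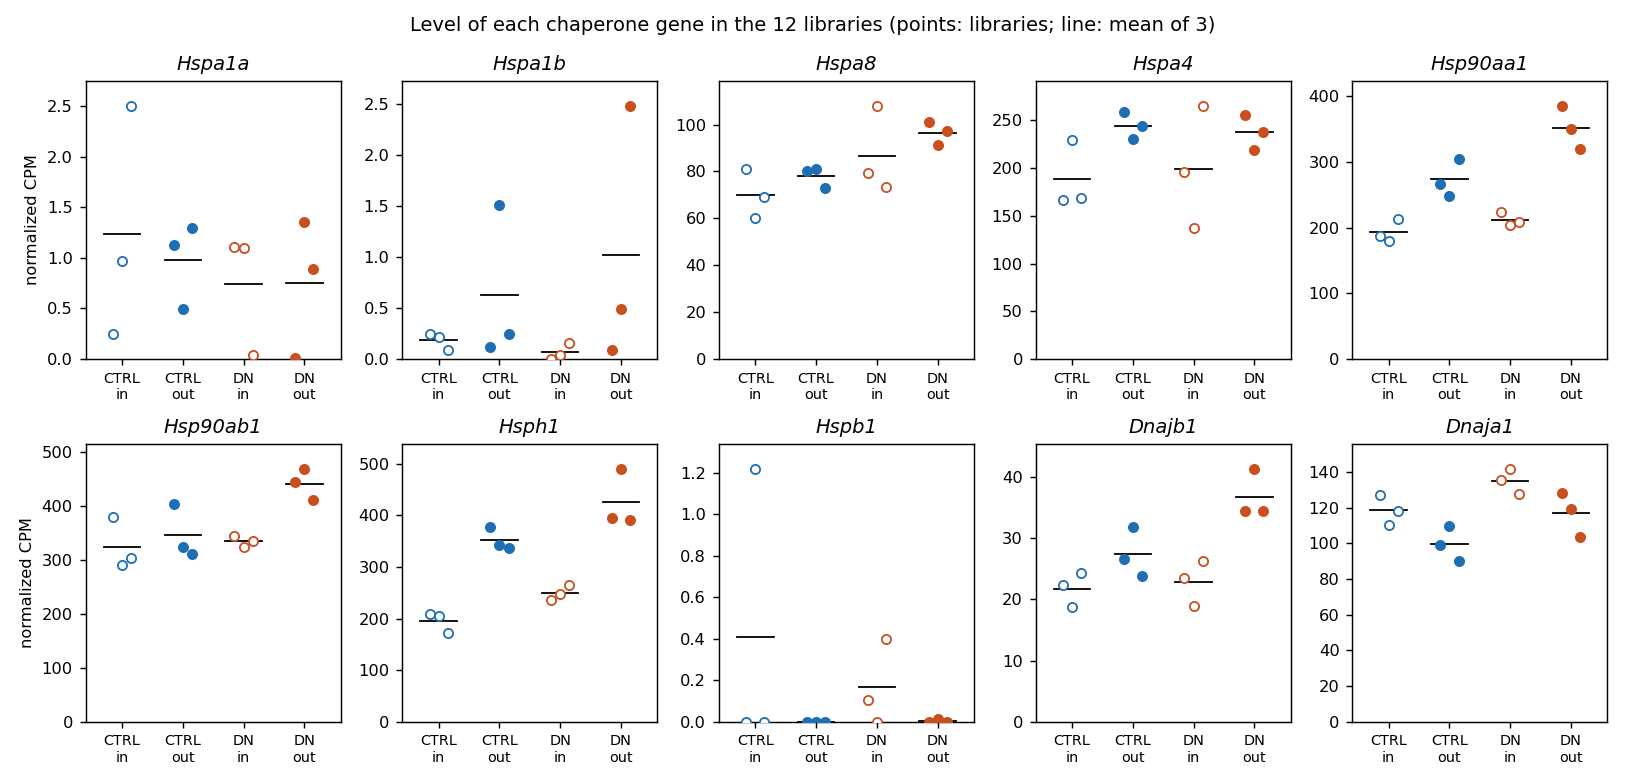
Normalized CPM (vertical axis, from 0, scale set per gene) of the 10 chaperone genes in CTRL inputs, CTRL outputs, DN inputs and DN outputs. Each point is a library and each line the mean of 3. The Hsph1 and Hsp90aa1 outputs lie above the inputs of the same group without overlap, and Hspa1a, Hspa1b and Hspb1 stay at or below 2.50 CPM.

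Hsph1, an Hsp110 protein that recharges Hsp70 with ATP, had the largest fold change between pulled-down and tissue RNA of the 8 chaperones tested, in CTRL and in DN, by point estimate. Its level was 208, 205 and 173 CPM in CTRL inputs and 378, 342 and 338 CPM in CTRL outputs of pools 1, 2 and 3. In DN it was 236, 247 and 266 CPM in inputs and 395, 490 and 390 CPM in outputs. Every output lay above every input, in both groups. Output exceeded input in 6 of 6 pools, by 0.74 to 0.96 on the log2 (CPM + 1) scale in CTRL pools and by 0.55 to 0.99 in DN pools.

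Fits of the raw counts gave the same direction. Each comparison was fitted with the quasi-likelihood test of edgeR over all genes that passed a filter on low counts, with Benjamini-Hochberg adjustment over those genes and a threshold of 0.05. Hsph1 was higher in outputs by a log2 fold change of 0.84 ± 0.14 in CTRL (standard error, SE; 1.79-fold; 95% interval 0.53 to 1.15; adjusted p = 0.00972) and by 0.76 ± 0.15 in DN (1.69-fold; 0.43 to 1.08; adjusted p = 0.0173). The CTRL value lay at the 86.0th percentile of all genes tested. Both calls ended without any one of the 3 pools: the fold change stayed at 0.80 to 0.91 in CTRL and 0.64 to 0.86 in DN, while the adjusted p became 0.0535 to 0.141 and 0.0972 to 0.171.

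In output against input in CTRL, Hsph1 was the only 1 of the 8 tested chaperones to pass, and it was higher. Of all 13456 genes tested, 3.2% passed in either direction and 1.78% as higher in outputs. The other 7 did not pass, and Hspa1b and Hspb1 were below the filter. In DN the count was 2 of 8, Hsph1 and Hsp90aa1, both higher, where 3.38% of 13041 genes passed in either direction and 1.84% as higher. The median log2 fold change of the 8 was 0.23 in CTRL, with 6 of 8 above 0, beside 0.02 over all genes with 51% above 0. In DN it was 0.32, with 7 of 8 above 0, beside 0.00 over all genes with 50.2% above 0. Of these 7, Hspa1a was at only 0.01 ± 1.62 (SE), and with DESeq2 the DN count was 6 of 8. These 8 are the chaperones that passed the filter, not all 10.

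Hsp90aa1, the Hsp90 form that stress can induce, stood at 187, 180 and 213 CPM in CTRL inputs and 267, 249 and 304 CPM in CTRL outputs. In DN it stood at 223, 204 and 208 CPM in inputs and 385, 350 and 320 CPM in outputs. All outputs were above all inputs, and all DN outputs were above all CTRL outputs. Output exceeded input by 0.46 to 0.52 on the log2 (CPM + 1) scale in CTRL pools and by 0.62 to 0.78 in DN pools. The edgeR log2 fold change of output against input passed in DN (0.72 ± 0.15, SE; 95% interval 0.40 to 1.04; adjusted p = 0.0198). In CTRL it was 0.49 ± 0.15 (0.16 to 0.82) and did not pass (adjusted p = 0.118; DESeq2 gave adjusted p = 0.0494). The DN call ended without any one of its 3 pools (adjusted p = 0.125 to 0.160) with the fold change at 0.70 to 0.77.

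Hsp90ab1, the form made at all times, was at 379, 290 and 303 CPM in CTRL inputs and 403, 324 and 310 CPM in CTRL outputs, which overlapped. In DN the inputs held 344, 324 and 336 CPM and the outputs 444, 469 and 412 CPM, with no overlap. The log2 fold change of output against input was 0.08 ± 0.16 in CTRL and 0.39 ± 0.13 in DN (adjusted p = 0.866 and 0.155 with edgeR, neither past the threshold). Within pools the log2 ratio was 0.03 to 0.16 in CTRL and 0.29 to 0.53 in DN.

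Both Hsp90 genes thus had pool ratios in DN above all those in CTRL. This held for 2 of 9 tested chaperones, where 5.05% of all 15011 genes tested did so, and for 2 of 9 with DESeq2 size factors (5% of genes) and with total counts of nuclear genes (4.76%). The difference of the output-input effect between DN and CTRL, tested as an interaction over all 12 libraries, did not pass for either. It was 0.23 ± 0.20 (95% interval -0.20 to 0.66; adjusted p = 0.942) for Hsp90aa1 and 0.31 ± 0.21 (-0.13 to 0.75; adjusted p = 0.893) for Hsp90ab1. With the pool as a block, which pairs input and output, the values were 0.23 ± 0.20 (unadjusted p = 0.276) and 0.31 ± 0.19 (unadjusted p = 0.133) in edgeR. For Hsph1, whose pool ratios overlapped, it was -0.08 ± 0.20 (-0.51 to 0.34; adjusted p = 0.989). With edgeR 0 of 9 tested chaperones passed in this interaction and 0 had an unadjusted p under 0.05, 0% of the 15011 genes tested passed, 933 genes (6.22%) had an unadjusted p under 0.05, and DESeq2 called 99 genes, of which 0 were chaperones of the 10. Of the 9 interaction values 7 were above 0, beside 49.2% of all genes. These 7 include Hspa8 at 0.0005 ± 0.28, and Hspa1a and Hspa1b, which had few counts and SEs of 2.18 and 2.45. The count was 6 of 9 with DESeq2 and 4 of 9 without CTRL replicate 3, so it does not show a shared shift.

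**Figure D2:**
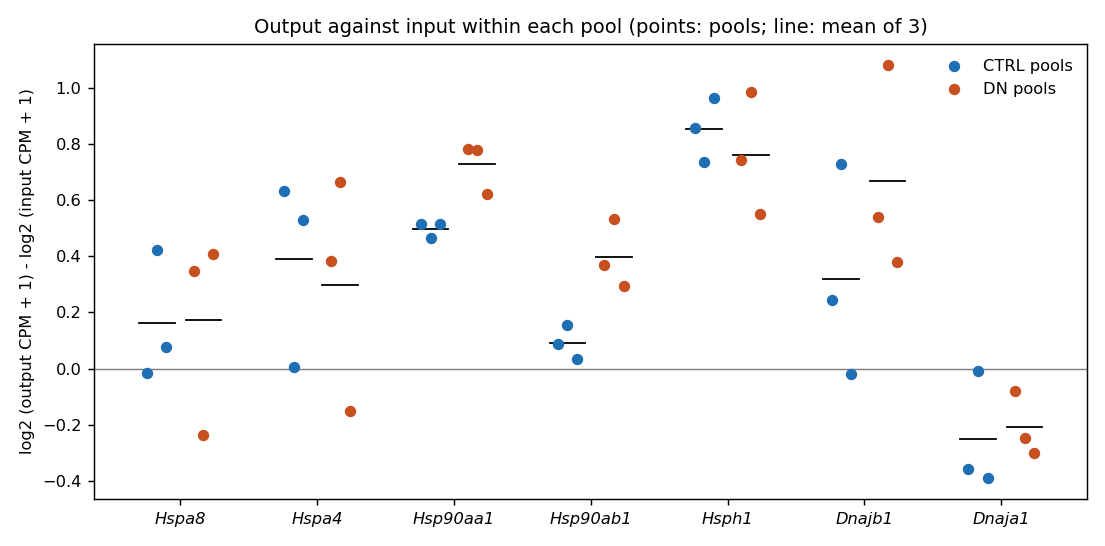
Log2 of output over input (CPM + 1) within each pool for the 7 chaperones with at least 10 counts in every library (vertical axis), CTRL pools in blue and DN pools in orange. Points are pools and lines the mean of 3. Hsph1 and Hsp90aa1 lie above 0.46 in all 6 pools, Dnaja1 lies below 0 in all 6, and for Hsp90aa1 and Hsp90ab1 the DN pools lie above the CTRL pools.

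Hspa8, the Hsp70 protein of unstressed cells, held 81.0, 60.3 and 69.0 CPM in CTRL inputs and 80.1, 81.0 and 72.9 CPM in CTRL outputs. In DN it held 79.3, 108 and 73.2 CPM in inputs and 101, 91.3 and 97.5 CPM in outputs. Inputs and outputs overlapped in both groups, while all DN outputs lay above all CTRL outputs. The edgeR log2 fold change of output against input was 0.14 ± 0.19 in CTRL and 0.14 ± 0.22 in DN (adjusted p = 0.781 and 0.819), and output exceeded input in 4 of 6 pools.

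Hspa4, an Hsp110 relative of Hsph1, was at 167, 229 and 169 CPM in CTRL inputs and 259, 230 and 244 CPM in CTRL outputs. In DN it was at 196, 137 and 265 CPM in inputs and 256, 218 and 238 CPM in outputs. The CTRL outputs stood above the inputs, by a small margin in pool 2, and DN inputs spanned the DN outputs. Neither log2 fold change, 0.37 ± 0.16 in CTRL and 0.24 ± 0.22 in DN, passed with edgeR (adjusted p = 0.290 and 0.676). With DESeq2 size factors or nuclear totals the CTRL groups of Hspa4 overlapped.

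Dnaja1, a J protein of the Hsp70 cycle, was the 1 chaperone with outputs below inputs in all 6 pools. It held 127, 110 and 118 CPM in CTRL inputs and 98.9, 110 and 89.9 CPM in CTRL outputs. In DN it held 135, 142 and 128 CPM in inputs and 128, 119 and 104 CPM in outputs. Pool 2 of CTRL was nearly level, with a log2 ratio of -0.01, and the other ratios ranged from -0.39 to -0.08. The fold changes, -0.26 ± 0.17 in CTRL and -0.22 ± 0.19 in DN, did not pass with edgeR (adjusted p = 0.479 and 0.646).

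Dnajb1, the J protein that partners with inducible Hsp70, was at 22.3, 18.8 and 24.2 CPM in CTRL inputs and 26.5, 31.8 and 23.9 CPM in CTRL outputs. In DN it was at 23.4, 19.0 and 26.2 CPM in inputs and 34.5, 41.3 and 34.4 CPM in outputs. Outputs and inputs overlapped in CTRL and were apart in DN. The log2 fold change was 0.32 ± 0.29 in CTRL and 0.67 ± 0.34 in DN, and neither passed with edgeR (adjusted p = 0.649 and 0.373).

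Groups that did not overlap were also counted, as a description. In CTRL, 3 of 8 tested chaperones had all outputs above all inputs (Hspa4, Hsp90aa1, Hsph1), where 12% of all genes did so, and 1 had all outputs below (Dnaja1), where 11.2% of all genes did so. In DN, 4 of 8 had all outputs above (Hsp90aa1, Hsp90ab1, Hsph1, Dnajb1), where 11.6% of genes did. With DESeq2 size factors and with nuclear totals, Dnaja1 had all outputs below all inputs in DN too, where 11.6% and 14% of genes did so. Scaling by total counts of nuclear genes moved every log2 value of output against input by -0.16 in CTRL and -0.19 in DN. With it Hsph1 still differed by 0.70 and 0.57 and Hsp90aa1 by 0.34 and 0.54 in mean log2 CPM, while Hsp90ab1 in CTRL turned from 0.09 to -0.07 and Hspa8 in DN from 0.17 to -0.01.

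DN was next compared with CTRL, which asks what the dominant-negative virus went with. The fits of outputs and inputs share no libraries with each other, but each shares its CTRL and DN libraries with the output-input fits above. In the tissue inputs, 0 of 8 tested chaperones passed with edgeR, 1 of 8 (Hsph1) had an unadjusted p under 0.05, where 4.46% of all genes did, and DESeq2 called 0 of 8. Over all 13221 genes 0.00756% passed, which is 1 gene. All DN inputs lay above all CTRL inputs for 2 of 8, Hsph1 and Dnaja1, where 5.17% of genes did so. With nuclear totals it was 1 of 8, Hsph1, where 4.18% of genes did so. The log2 fold changes were 0.35 ± 0.15 for Hsph1 (95% interval 0.02 to 0.69; adjusted p = 0.997) and 0.19 ± 0.17 for Dnaja1. Hspa8 was at 0.31 ± 0.23, and Hsp90aa1 (0.13), Hspa4 (0.08), Dnajb1 (0.07) and Hsp90ab1 (0.05) were nearer 0. The median was 0.11 for the 8, with 7 of 8 above 0, and 0.03 for all genes, with 52.2% above 0. Markers of some cell types moved with the inputs too, although none passed. The 6 VMN neuron markers were all above 0 with a median of 0.47, and Nr5a1 was at 1.29 to 2.97 CPM in CTRL inputs and 4.72 to 6.88 CPM in DN inputs (log2 fold change 1.54 ± 0.73). The 4 markers of ependyma, which lines the ventricle, were all above 0 with a median of 1.05, and they summed to 2.16 to 5.35 CPM in CTRL and 4.21 to 12.1 CPM in DN inputs. Medians of the other cell type lists were 0.16 for GABA neurons, 0.11 for astrocytes, 0.02 for oligodendrocytes, -0.13 for endothelium and -0.25 for microglia. Microglia markers summed to 40.6 to 215 CPM within the CTRL inputs. The part of all these markers in the chaperone values of the inputs was not tested.

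In the pulled-down RNA, DN outputs held more of several chaperones than CTRL outputs in every library, yet none passed. With edgeR 0 of 9 tested chaperones passed, 2 of 9 had an unadjusted p under 0.05 and DESeq2 called 0 of 9. Over all 13333 genes 0% passed, 5.41% had an unadjusted p under 0.05, and DESeq2 called 58 genes. All 3 DN outputs lay above all 3 CTRL outputs for 5 of 9, Hspa8, Hsp90aa1, Hsp90ab1, Hsph1 and Dnajb1, where 5.17% of genes did so. With total counts of nuclear genes as the scaling it was 2 of 9, Hspa8 and Hsp90aa1, where 3.74% of genes did so.

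The edgeR log2 fold changes of DN against CTRL outputs ranged from -0.04 to 0.42 for the 7 chaperones with at least 10 counts in every library. They were 0.36 ± 0.15 for Hsp90aa1 (95% interval 0.04 to 0.69; adjusted p = 0.911) and 0.35 ± 0.15 for Hsp90ab1 (0.03 to 0.67; adjusted p = 0.911). Dnajb1 was at 0.42 ± 0.30 (-0.23 to 1.07; adjusted p = 0.949), Hspa8 at 0.31 ± 0.19 (-0.10 to 0.72; adjusted p = 0.949) and Hsph1 at 0.27 ± 0.14 (-0.05 to 0.58; adjusted p = 0.948). Dnaja1 was at 0.23 ± 0.19, and Hspa4 was at -0.04 ± 0.15 (-0.37 to 0.28), which turned to 0.02 without DN replicate 2. Of the 9, 7 were above 0 with a median of 0.31, beside 50.8% and a median of 0.01 over all genes. Nuclear totals lowered each DN against CTRL output value by 0.08 on the log2 scale, which left Hsp90aa1 at 0.28, Hsp90ab1 at 0.28, Hspa8 at 0.23, Dnajb1 at 0.34 and Hsph1 at 0.18.

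Markers moved with the outputs as well. The summed VMN neuron markers were higher in all DN outputs than in all CTRL outputs (1433 to 1917 against 1132 to 1334 CPM), with log2 fold changes above 0 in 5 of 6 and a median of 0.43, although none passed. Slc17a6, a glutamate transporter of vesicles, was at 0.33 ± 0.14, Fezf1, a transcription factor of VMN neurons, at 0.48 ± 0.16 and Nr5a1, which encodes SF1, at -0.02 ± 0.50. Markers of GABA neurons summed to 242 to 307 CPM in CTRL outputs and 197 to 221 CPM in DN outputs. Oligodendrocyte markers summed to 212 to 350 against 172 to 269 CPM. The part of these markers in the chaperone values was not tested.

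**Figure D3:**
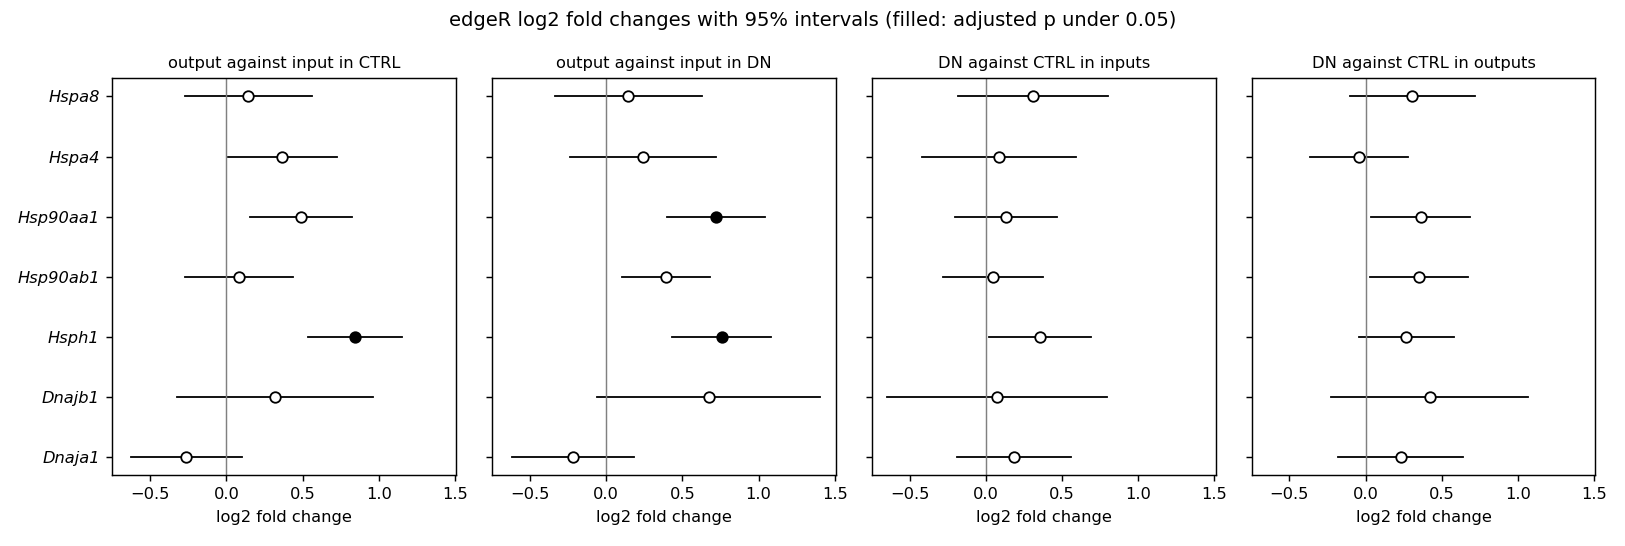
Log2 fold changes of edgeR (horizontal axis) with 95% intervals for 7 chaperones in the 4 comparisons of 2 groups of 3 libraries. Filled points have an adjusted p under 0.05: Hsph1 in both output-input comparisons and Hsp90aa1 in DN, while no point is filled in DN against CTRL, where the values range from -0.04 to 0.42.

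The stress-inducible Hsp70 genes had few counts and varied widely within groups. Hspa1a had 7, 27 and 56 counts in CTRL inputs, 79, 32 and 79 in CTRL outputs, 31, 27 and 1 in DN inputs, and 1, 91 and 65 in DN outputs. In CPM these were 0.244, 0.967 and 2.50, then 1.13, 0.498 and 1.297, then 1.11, 1.09 and 0.0400, and last 0.0147, 1.36 and 0.893. All 4 groups overlapped, and no log2 fold change passed in any comparison, with standard errors of 1.17 to 2.18. The DN input of pool 3 and the DN output of pool 1 were at 1 count each, and these come from different pools.

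Hspa1b had 7, 6 and 2 counts in CTRL inputs, 8, 97 and 15 in CTRL outputs, 0, 1 and 4 in DN inputs, and 6, 33 and 180 in DN outputs. It was tested only in outputs and in the interaction, and its DN against CTRL value in outputs, 0.71 ± 1.56, became -1.10 without DN replicate 3. Added together, the pair ranged from 0.103 CPM (DN output, pool 1) to 3.37 CPM (DN output, pool 3), so the lowest and the highest library belonged to the same group. The pair's deviations from the group means had a Pearson r of -0.04 over the 12 libraries.

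Hspb1, a small heat shock protein, had 34 counts (1.22 CPM) in the CTRL input of pool 2 and 0 in the other CTRL inputs. It had 0 counts in all 3 CTRL outputs, 3, 0 and 10 in DN inputs, and 0, 1 and 0 in DN outputs. A count of 0 allows up to 0.0493 CPM in an output. It was tested in no comparison. No fold is given, since most libraries were at or under the limit.

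The genes most like single chaperones across libraries were found by the Pearson r of deviations from group means over the 12 libraries, among 7715 protein-coding genes. For Hsp90aa1 they were Mtrr (r = 0.95), Zfp385b (0.91) and Calb1 (0.90). For Hspa8 they were Ube2q2 (0.94), Tmem222 (0.92) and Rfxap (0.91). For Hspa1a they were Man2b1 (0.94), Txn1 (0.92) and Ebf3 (0.90), and for Hspa1b Plekhh1 (0.97), Cst3 (0.95) and Cep295 (0.94). Hspa1a reached 27 counts in 9 of 12 libraries and Hspa1b in 3 of 12, so the r values of this pair are uncertain, most of all for Hspa1b. None are given for Hspb1, which had 0 counts in 8 of 12 libraries. The r values given are the highest of many over libraries that share groups, pools and scaling, and they are a description.

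Genes around the chaperones were read from lists of regulators, relatives and partners. Of the regulators of the heat shock response, 0 of 4 tested passed in either output-input comparison. Hsf1, the transcription factor named above, was at 11.8 ± 4.31 CPM in CTRL inputs and 4.67 ± 2.4 CPM in CTRL outputs (SD, n = 3), a log2 fold change of -1.35 ± 0.58 that did not pass (adjusted p = 0.273 with edgeR), and it was at 0.24 ± 0.77 in DN. Hsbp1, which binds Hsf1 and damps it, was at 146 ± 16.1 and 223 ± 31.1 CPM (0.59 ± 0.17; adjusted p = 0.0849) in CTRL and at 225 ± 37.2 and 344 ± 88.3 CPM (0.60 ± 0.20; adjusted p = 0.150) in DN. Hsf4 was at 1.76 ± 1.39 in CTRL and did not pass. DN against CTRL, Hsbp1 was at 0.62 ± 0.18 in inputs and 0.62 ± 0.20 in outputs and did not pass (adjusted p = 0.997 and 0.910 with edgeR). With TMM scaling, all DN libraries lay above all CTRL libraries in inputs and in outputs, where 5.17% of all genes did so in each. The margin in outputs was small, with 259.4 CPM in DN replicate 3 and 257.6 CPM in CTRL replicate 2. As shares of nuclear counts (18881 of 31.8 M and 16547 of 27.6 M), the order of these 2 libraries was reversed.

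Over all genes tested, 1.78% passed as higher in CTRL outputs and 1.84% in DN outputs, the shares to set beside this and the following lists. Among other Hsp70 proteins, 1 of 6 tested passed as higher in CTRL outputs and 1 of 5 in DN outputs. It was Hspa12a, a distant Hsp70 relative, at 128 ± 9.47 CPM in CTRL inputs and 259 ± 42.4 CPM in CTRL outputs (log2 fold change 1.01 ± 0.16; adjusted p = 0.00889 with edgeR). In DN it was at 0.97 ± 0.21 (adjusted p = 0.0260). Hspa4l, a relative of Hspa4, was at 0.33 ± 0.13 and 0.50 ± 0.14, and Hspa2, an Hsp70 first known from testis, at -2.31 ± 0.69 and -2.05 ± 0.96, none of which passed. The list medians were 0.24 in CTRL and -0.14 in DN.

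Of 15 other J proteins, 0 passed in CTRL and 1 passed as higher in DN outputs. The 1 was Dnaja2, named after its value was seen, at 67.9 ± 3.48 CPM in inputs and 141 ± 27.2 CPM in outputs (1.04 ± 0.21; adjusted p = 0.0195). It was at 0.23 ± 0.21 in CTRL. Dnajc5, a J protein of synaptic vesicles, was at 0.67 ± 0.17 in CTRL and 0.63 ± 0.16 in DN (adjusted p = 0.0545 and 0.0536, not passing). Dnajc6, which uncoats clathrin vesicles in neurons, was at 0.54 ± 0.14 and 0.57 ± 0.16, and Dnajc2, a J protein of the ribosome, at 0.72 ± 0.33 and 0.08 ± 0.39.

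Of 9 Hsp70 cochaperones tested, 0 passed in CTRL and 1 passed as higher in DN outputs, with list medians of -0.53 and -0.25. The 1 was Bag4, at 25.4 ± 6.09 CPM in inputs and 63.6 ± 14.7 CPM in outputs (1.31 ± 0.31; adjusted p = 0.0406), and it was at 0.61 ± 0.22 in CTRL. Bag1, an exchange factor, was at 0.79 ± 0.26 in CTRL and 0.12 ± 0.29 in DN, and Bag2 at -2.19 ± 1.0 and 0.45 ± 0.86. Of 12 Hsp90 cochaperones, 1 passed as higher in CTRL outputs and 0 passed in DN. This was Ptges3 (p23), which holds Hsp90 in its closed form, at 15.9 ± 2.29 CPM in inputs and 37.7 ± 3.70 CPM in outputs (1.24 ± 0.28; adjusted p = 0.0406). In DN, Ptges3 was at -0.26 ± 0.35, with inputs at 35.4 ± 12.2 CPM. Ppid was at 0.70 ± 0.29 and 0.26 ± 0.32 and Fkbp4 at 0.53 ± 0.43 and -0.33 ± 0.61, and these did not pass.

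Of 3 other small heat shock proteins tested, 0 passed in either comparison, with Cryab and Hspb8 below 0 and Hspb6 above it. Cryab, a crystallin known from glia and muscle, was at 15.8 ± 11.8 CPM in CTRL inputs and 2.41 ± 1.35 CPM in CTRL outputs (-2.73 ± 0.66; adjusted p = 0.0512), and at -3.72 ± 0.94 in DN (adjusted p = 0.0536). Hspb8 was at -2.91 ± 0.98 and -2.15 ± 1.04, and Hspb6 at 0.55 ± 0.38 and 0.87 ± 0.58. The calls named in these lists ended without any one of the 3 pools of their group, with adjusted p of 0.0615 to 0.128 (CTRL) and 0.0809 to 0.226 (DN) for Hspa12a, 0.116 to 0.244 for Ptges3, 0.0826 to 0.160 for Dnaja2 and 0.0752 to 0.259 for Bag4. The ring-shaped chaperonin of the cytosol passed for 0 of 8 subunits in both, with medians of 0.15 and 0.11 and with Cct6a at 0.36 ± 0.17, Cct4 at 0.43 ± 0.27 and Cct3 at 0.51 ± 0.39 in CTRL. Of 6 chaperones of mitochondria and other organelles, 0 passed in both, with Trap1 at 0.86 ± 0.57, Hspd1 at 0.24 ± 0.18 and Hspa9 at 0.24 ± 0.24 in CTRL. Early response genes, which report recent stimulation, passed for 0 of 10 in CTRL and 0 of 7 in DN, with Egr1 at 0.45 ± 0.40 and Jun at -0.98 ± 0.61 in CTRL. No gene of these 9 lists passed in DN against CTRL, in inputs or in outputs.

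**Figure D4:**
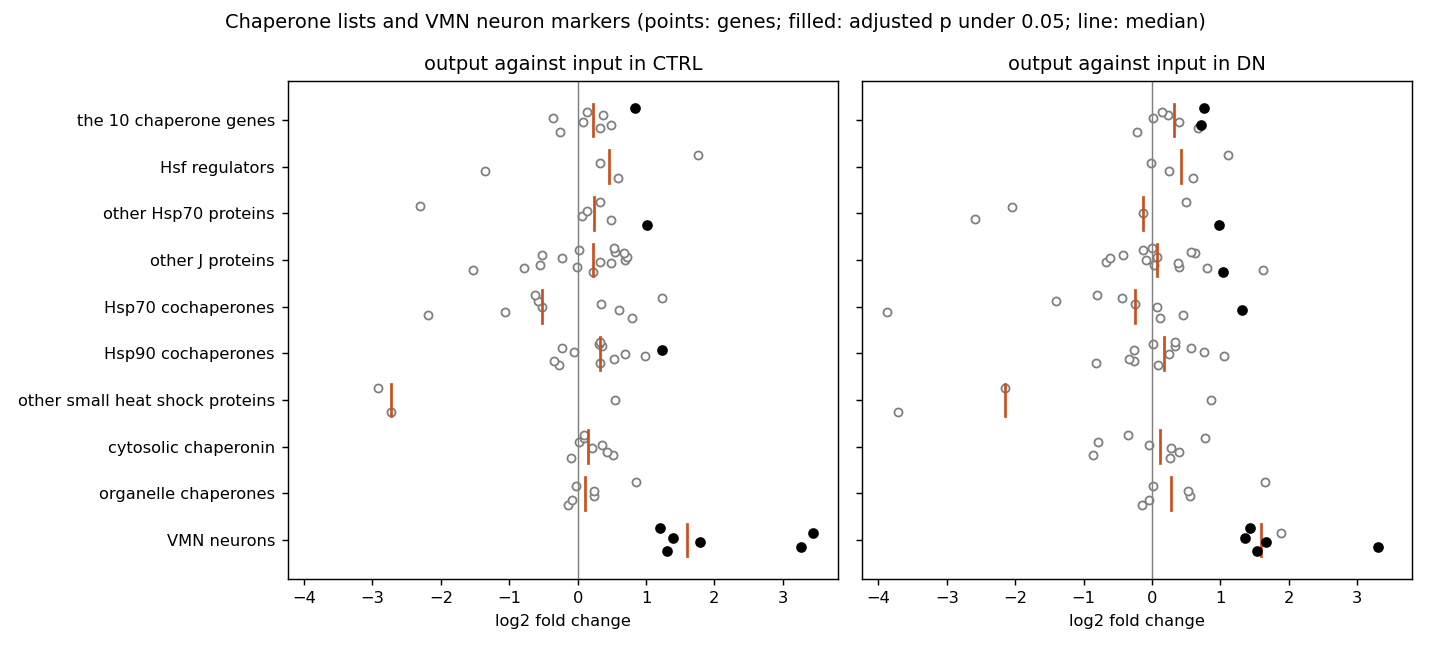
Log2 fold change of output against input (horizontal axis) for each tested gene of the chaperone lists and of the VMN neuron markers, in CTRL (left) and DN (right). Points are genes, filled ones have an adjusted p under 0.05 with edgeR, and each line is the list median. The VMN neuron markers lie at 1.20 or more, and the small heat shock proteins have medians of -2.73 and -2.15.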

How the data were processed

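RNA sequencing libraries of inputs and outputs were used as deposited by the authors: whole-number counts of reads per Ensembl gene, 1 table per library, not normalized. The submitters' processing notes name build GRCm38, STAR 2.4.2a, HTSeq 0.6.1 and cutadapt 1.3. Per the labels, RNA was amplified with the NuGEN Ovation system. The sources used here do not give tool settings, strand setting or annotation release. The 5 classes of reads without a gene (16.1 to 26.1% of reads counted or set aside) were left out. Symbols, positions and exon lengths came from GENCODE M21, which held 46005 of 46517 identifiers (98.9%).

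Groups came from the sample titles. Libraries were tested with edgeR 4.0.16 in R 4.3.3 (quasi-likelihood, two-sided), after TMM scaling. The filter was filterByExpr with a count of 10 and a total of 15 as minima, and p-values were adjusted by Benjamini-Hochberg at 0.05. Each of 4 comparisons was a fit of its 6 libraries, and the interaction a fit of all 12. The SE is the log2 fold change divided by the square root of F. Pool ratios used CPM plus 1. P-values measure the spread between these pools. No library was a copy of another. Fits of output against input in CTRL and of DN against CTRL in outputs were also run on simulated counts. The known changes in these were larger than the calls of Hsph1 and Hsp90aa1, so that run does not show how well smaller changes are found.

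The genes, the lists and the rule for named genes were chosen with earlier results of these data known. The rule takes all 10 chaperones, Hsf1, up to 3 genes per chaperone list with the smallest p in CTRL, the 2 most abundant genes of each other list, and the 3 most alike genes of at least 5 CPM for 5 chaperones, of which Hspb1 was left out for its counts of 0.

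Input and output of one number are one pool, per the study's design. Their deviations from group means correlated across genes with r = 0.148, 0.0519 and 0.212 for the CTRL pools, and r = 0.00997, -0.00536 and 0.0107 for the DN pools. DN and CTRL pools share only a number. Alternatives were DESeq2 1.42.0, DESeq2 size factors, upper quartile scaling, no filter, no mitochondrial genes, Hspa1a and Hspa1b summed, a replicate block, a pseudocount of 0.5 and leaving out each replicate. Scaling by nuclear totals was chosen after seeing the data.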

Additional observations from a re-analysis of the deposited data

How the results depend on the processing

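The fold changes of the 3 calls kept their direction under every alternative run. The count of chaperones past the threshold in output against input was 1 in CTRL with edgeR and 2 with DESeq2, and it ranged from 0 to 0 when each CTRL pool was left out. In DN it was 2, and it ranged from 0 to 0 when each DN pool was left out. Leaving out a pool takes 2 of 6 libraries from a fit. With the pool as a replicate block the counts were 1 and 2, and the adjusted p of Hsph1 was 0.00794 in CTRL and 0.0235 in DN, so the pairing ended no call. A block of replicate numbers between DN and CTRL gave 0 chaperones in inputs and 0 in outputs. Same-numbered DN and CTRL libraries correlated at -0.0334 to 0.0116, and 4 of 12 correlated best with their own number. The mean log2 pool ratio of Hsp90aa1 in CTRL was 0.50 with TMM and 0.46 with DESeq2 size factors. Chaperones with all DN libraries above all CTRL libraries numbered 2 of 8 tested in inputs and 5 of 9 in outputs with TMM. Of all genes 5.17% did so in each. With nuclear totals the counts were 1 of 8 and 2 of 9, beside 4.18% and 3.74% of genes. Over all alternatives the adjusted p was 5.83e-06 to 0.141 for Hsph1 in CTRL, 0.00119 to 0.171 for Hsph1 in DN and 0.00171 to 0.160 for Hsp90aa1 in DN. Over all genes, output against input in CTRL called 431 genes, and 1172 with DESeq2, 903 without a filter and 45 to 214 without each pool. In DN it called 441, and 1124, 976 and 115 to 148. DN against CTRL called 1 gene in inputs (39 without a filter, 2 with DESeq2, 0 with other scalings or a block, 0 to 8 without each library) and 0 in outputs (58 with DESeq2). The interaction called 0 (99 with DESeq2, 54 without a filter). No chaperone of the 10 passed in DN against CTRL or in the interaction under any of these. Fold changes of Hspa1a, Hspa1b and other chaperones near 0 changed sign in 2 and 5 fits of output against input in CTRL and DN, in 7 and 4 of DN against CTRL in inputs and outputs, and in 14 of the interaction, all without a call. The cause of these shifts was not tested. At this depth Hspb1 had 0 counts in 8 of 12 libraries. Hspa1a and Hspa1b spread from 1 to 91 and from 6 to 180 counts within the DN outputs alone.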
